A study of Homo sapiens with 16 samples.

Results

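Translation efficiency (TE) is the number of ribosome-protected mRNA fragments (footprints) of a gene divided by the amount of its mRNA, measured in fragmented total RNA of the same cells (input). It was described here in the 3 control samples of a ribosome profiling study of A549, a human lung adenocarcinoma line with epithelial features. The controls were cells labelled untreated and 2 samples carrying a scrambled short hairpin, called scramble 1 and scramble 2. The series text names the first control after a non-targeting guide, whereas its label and column code point to cells with no guide, and the sources used here do not settle which holds. The other 5 of the 8 samples carried a guide or hairpin against METTL16 (sgM16 1, sgM16 2, shM16 1) or a hairpin against EIF4E2 (sheIF4E2 1 and 2). All cells received fresh medium for 2 h and cycloheximide, which halts elongating cytosolic ribosomes, at 100 µg/mL for 5 min. Footprints were selected at 30 nt and zinc-fragmented input at 40 to 60 nt. Genes were kept if they were listed in all 3 controls with an input of at least 5 TPM (read density over the length of a gene, scaled to the library) in each, which left 5672 genes of 9012 listed in all 3 controls and 12587 listed in any sample.

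A cell sets how much protein it makes from an mRNA mainly when ribosomes initiate on it. The cap-binding complex, structures and short upstream reading frames in the 5′ leader, and proteins that bind the leader all act at that step. Known examples are the ferritin mRNAs, which iron regulatory proteins can silence through a leader hairpin, and ATF4, whose upstream reading frames keep ribosomes off its coding sequence unless eIF2 is phosphorylated. Another class is the mRNAs of the translation machinery, which begin with a terminal oligopyrimidine (TOP) tract and respond to the growth-controlling kinase mTOR.

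Relative TE is given below as log2(footprint TPM + 1) minus log2(input TPM + 1), less the value of the median kept gene of that control, so that 0 is the median gene. The median TE before this centring was 0.782 in the untreated control, 0.615 in scramble 1 and 0.371 in scramble 2, or -0.36, -0.70 and -1.43 on the log2 scale. All directions below are therefore relative to the median gene and say nothing of total protein synthesis. Input libraries held 462672 to 552128 recovered reads and footprint libraries 498580, 571518 and 196999, so the scramble 2 footprints were the shallowest. A kept gene had a median of 33 to 46 input reads, and of 34, 35 and 14 footprint reads in untreated, scramble 1 and scramble 2. Of 9 A549 epithelial markers 8 were listed in all 3 controls, all but EPCAM, with a summed input of 3400 to 4539 TPM. Of 7 markers of other cells 2 were listed, at 10.6 to 14.4 TPM in sum, and PTPRC, CD3E, PECAM1, HBB and SFTPC were not listed. The labels do not say that the controls came from separate cultures, so the p-values speak only for these 3 samples. Each p-value rests on a variance that limma draws toward that of genes with similar input, not on the gene's own SD alone. HSP90AA1, with an SD of 1.36, had a standard error of 0.35, and AXL, with an SD of 0.10, one of 0.22.

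The order of genes by TE was shared in part between the controls. Spearman's rho over the 5672 genes was 0.66 between untreated and scramble 2, 0.55 between untreated and scramble 1, and 0.54 between the scrambles, a description across genes that share lengths and annotation. Among 669 genes with at least 50 reads in every library it was 0.81, 0.47 and 0.56. Untreated and scramble 2 shared 261 of the 567 genes in their highest 10%, untreated and scramble 1 shared 137, and the scrambles shared 174. The untreated control and scramble 2 were therefore the most alike pair, and each control stands in a deposited table of its own.

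**Figure D1:**
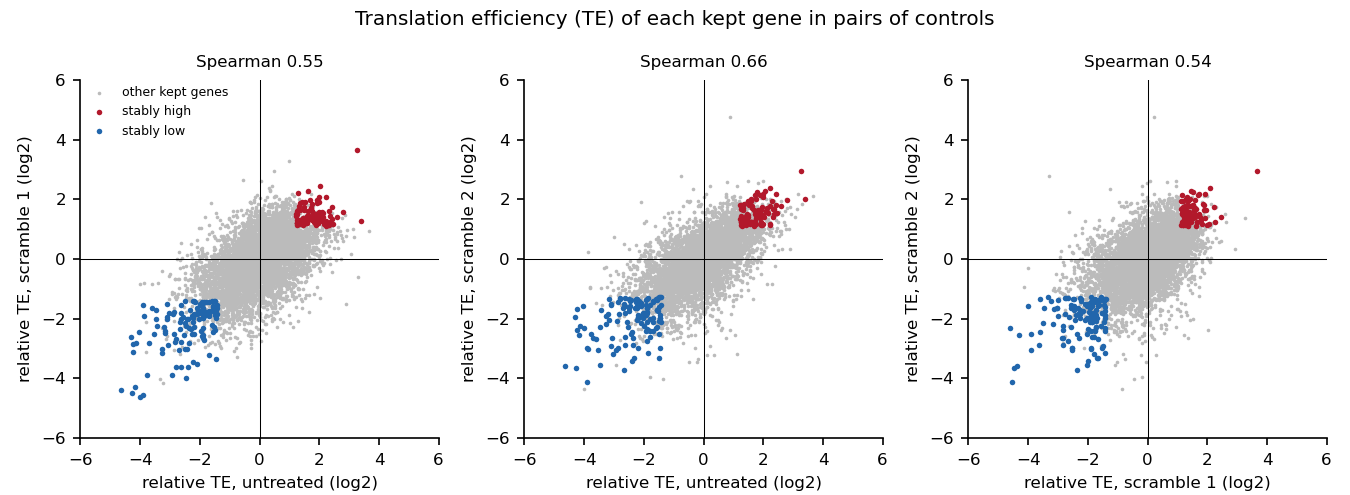
Relative TE (log2, 0 = median gene) of each of the 5672 kept genes in pairs of controls, with genes in the highest 10% of all 3 controls in red and genes in the lowest 10% of all 3 in blue. The cloud is narrowest between untreated and scramble 2 (Spearman 0.66), and the lone red point at the upper right of each panel is KRT85.

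TE spanned 6.56-fold between the 5th and the 95th percentile of genes, from -1.51 to 1.20 on the log2 scale. A limma fit over the 3 controls called 705 genes higher than the median gene (12.4% of those tested) and 862 lower (15.2%) at a Benjamini-Hochberg adjusted p under 0.05, and 2258 genes had an unadjusted p under 0.05. These shares are the background for every group count below, also where they are not repeated. The genes called higher had a median relative TE of 1.13 and those called lower of -1.31. In rank, 89 genes (1.57%) lay in the highest 10% of every control and 127 (2.24%) in the lowest 10% of every control, and these are named stably high and stably low. Above the median gene in all 3 controls were 1616 genes (28.5%), and below it in all 3 were 1640 (28.9%). The median SD of a gene between controls was 0.48, and it was 0.60 where the shallowest library held fewer than 10 reads and 0.31 where it held 100 or more. Each call count fell when 1 control was left out. The fit without the untreated control called 348 genes higher and 528 lower, without scramble 1 it called 628 and 791, and without scramble 2 it called 349 and 592. The pseudocount of 1 TPM bears on genes with few footprints: of 148 genes picked by a fixed rule, 20 called lower and 0 called higher moved by over 1.5 times at a pseudocount of 0.1 or 5 TPM. For those described below, the values at both are given beside their own, and of those 20 only ZNF513 lost its call. Requiring at least 5 TPM of footprints in each control, which removes genes with few footprints and moves the median gene, kept 28 of the 127 stably low genes and 40 of the 89 stably high genes in those sets. A fit that ignored which footprint and input library came from the same sample called 136 higher and 297 lower.

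The 8 subunits of CCT, the ring-shaped chaperonin that folds actin and tubulin, formed the group with the highest TE. All 8 of 8 kept subunits were called higher, against 12.4% of all genes, and 7 were still called without the untreated control or without scramble 2. The median of the subunits was 1.69 in untreated, 1.17 in scramble 1 and 1.31 in scramble 2, against 0 for all genes. CCT8 had 28.8, 56.9 and 54.0 TPM of input in untreated, scramble 1 and scramble 2, and 96.7, 96.7 and 98.2 TPM of footprints. Its footprint level was close in all 3 controls while its input was lowest in the untreated control. Its relative TE of 1.94 ± 0.43 (SD, n = 3) corresponded to 3.82 times the median gene (limma adjusted p = 0.000232). CCT2 had 67.7, 79.5 and 123 TPM of input and 232, 143 and 149 TPM of footprints, and a relative TE of 1.79 ± 0.30 (limma adjusted p = 0.000117). Here the untreated control was highest in footprints and lowest in input. The lowest subunit, CCT3, stood at 0.92.

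Proteasome subunits, which build the particle that degrades ubiquitin-tagged proteins, followed closely. Of 30 kept subunits 19 were called higher (63.3%, against 12.4% of all genes) and 0 lower. All 30 lay above the median gene in every control, against 28.5% of all genes. The count called higher was 12 without the untreated control, 18 without scramble 1 and 14 without scramble 2. The group medians were 1.12, 0.90 and 0.96. PSMA4, a subunit of the outer ring of the core particle, had 26.8, 32.2 and 32.0 TPM of input and 86.0, 50.2 and 51.0 TPM of footprints, and its relative TE was 1.81 ± 0.42 (limma adjusted p = 0.000818). PSMD1 of the regulatory cap, at a lower input of 6.25, 8.88 and 9.98 TPM, reached 1.56 ± 0.29 (limma adjusted p = 0.00377). Both subunits had footprint levels above their input level in every control, whereas the median gene did not.

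Of 22 cytosolic and mitochondrial chaperones 13 were called higher (59.1%, against 12.4% of all genes) and 0 lower. Without the untreated control 7 were called higher. HSP90AA1, the stress-inducible HSP90, had 46.2, 221 and 144 TPM of input and 463, 261 and 231 TPM of footprints. Its TE was 10.0 in untreated (95% Clopper-Pearson interval 8.10 to 12.5, counting error only), 1.18 in scramble 1 (1.04 to 1.33) and 1.60 in scramble 2 (1.36 to 1.89). The untreated control stood far from both scrambles, mostly through its lower input, and the SD of relative TE was 1.36 around a mean of 2.23 (limma adjusted p = 0.000259). HSPA4, an HSP70-family partner, showed the same order, with relative TE of 2.31, 0.79 and 1.44. The folding enzymes of the endoplasmic reticulum (ER) were more even. Of 16 kept, 5 were called higher (31.2%, against 12.4% of all genes) and 0 lower. Those called higher numbered 2 without scramble 2 and 3 without either of the others. Among the 5 were the HSP70 of the ER, HSPA5, at 1.07 ± 0.31, and the prolyl isomerase PPIB at 1.15, 1.07 and 1.04.

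Genes of cell division were also high. Of 29 kept mitotic and G2/M genes 20 were called higher (69.0%, against 12.4% of all genes) and 1 lower. The medians were 1.12, 0.93 and 0.87. The count called higher was 8 without the untreated control, 14 without scramble 1 and 10 without scramble 2. TOP2A, the topoisomerase that untangles chromosomes, had 14.3, 70.2 and 58.4 TPM of input and 126, 105 and 88.6 TPM of footprints. Its TE of 8.81 in the untreated control (6.25 to 12.8) was far above 1.50 (1.24 to 1.81) and 1.52 (1.20 to 1.92) in the scrambles, again with a lower input beside a similar footprint level. At 2.24 ± 1.08 it was the highest of the genes named by rule (limma adjusted p = 0.000317). CDK1, the kinase that drives entry into mitosis, stood at 2.26, 0.99 and 1.92. Of 32 DNA replication genes 13 were called higher (40.6%) and 1 lower, with 6 higher without scramble 2. RRM1, a subunit of ribonucleotide reductase, had a relative TE of 2.36, 1.43 and 1.52 (limma adjusted p = 0.00101). Input of TOP2A, CDK1 and the cytokinesis genes ECT2 and KIF23 was lowest in the untreated control. Footprints of TOP2A, CDK1 and KIF23 were highest there, and those of ECT2 lay between the scrambles. Some genes of other groups, such as HSP90AA1 and NARS1, also had their lowest input in the untreated control, whereas LDHA had it in scramble 1. The cause of the lower input was not tested. In bulk samples the share of dividing cells and the mRNA per cell cannot be told apart.

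**Figure D2:**
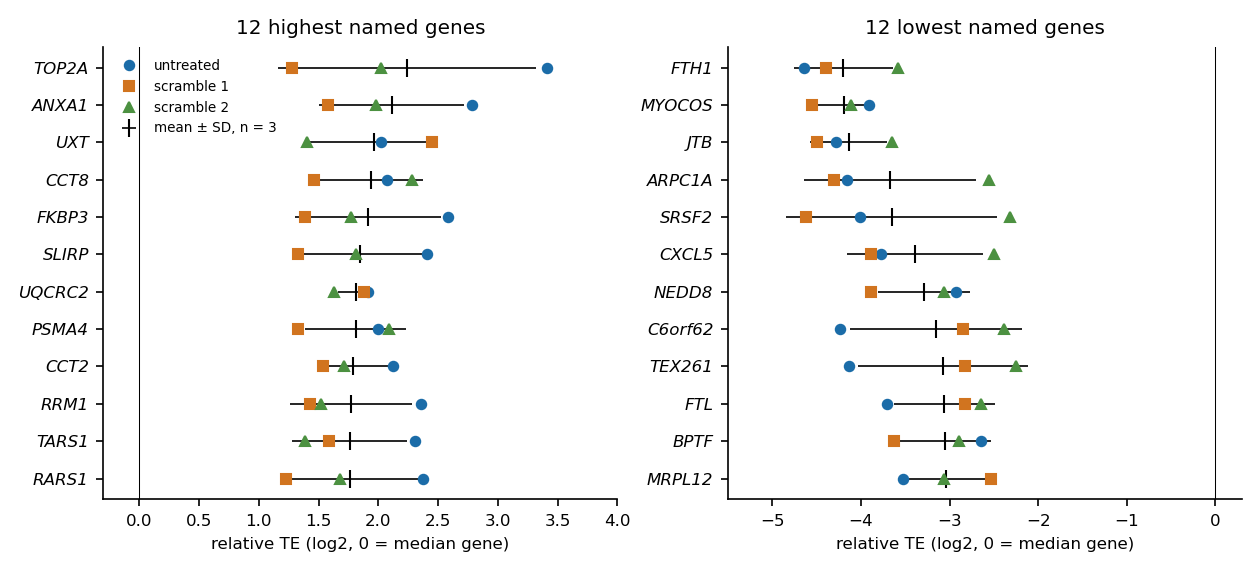
Relative TE (log2) in each control of the 12 highest and the 12 lowest genes that were called, stably ranked and had a mean input of at least 20 TPM. Points are the 3 controls and black bars the mean ± SD (n = 3). The highest gene, TOP2A, averaged 2.24 and the lowest, FTH1, -4.20, and the low tail reaches further from the median gene than the high tail at the pseudocount of 1 TPM.

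Enzymes that charge tRNAs with amino acids were higher as well. Of 27 kept aminoacyl-tRNA synthetases 11 were called higher (40.7%, against 12.4% of all genes) and 0 lower. Above the median gene in every control lay 22, against 28.5% of all genes. Without the untreated control or without scramble 2, 6 were called higher. TARS1, which charges threonine tRNA, stood at 2.31, 1.59 and 1.39 (limma adjusted p = 0.000483), and RARS1, for arginine, at 2.37, 1.23 and 1.68 (limma adjusted p = 0.00106). The ribosome assembly factors had 11 of 35 called higher (31.4%) and 0 lower, with 4 higher without the untreated control and 6 without scramble 2. DDX21, a nucleolar RNA helicase, was at 2.64, 1.08 and 1.47. Splicing factors and hnRNP proteins were split. Of 65 kept, 22 were called higher (33.8%) and 7 lower (10.8%, against 15.2% of all genes). Those called higher numbered 7 without the untreated control and 10 without scramble 2. SF3B1 of the U2 snRNP was at 1.72 ± 0.65, whereas the serine/arginine-rich factors SRSF2 and SRSF1 were among the lowest genes of all. SRSF2 had 97.0, 59.9 and 69.3 TPM of input but only 3.77, 0.524 and 4.24 TPM of footprints, a relative TE of -3.65 ± 1.19 (-4.19 and -2.73 at 0.1 and 5 TPM; limma adjusted p = 1.32e-06). SRSF1 was at -2.70 ± 1.25 (-4.02 and -1.53 at 0.1 and 5 TPM) and had 0, 6 and 5 footprint reads against 46, 44 and 59 input reads. These proteins are known to regulate the splicing of their own mRNAs.

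Respiratory-chain genes differed in measured TE by the genome that encodes them. Of 69 kept nuclear-encoded oxidative phosphorylation genes 28 were called higher (40.6%, against 12.4% of all genes) and 4 lower (5.8%, against 15.2%). Without the untreated control 12 were called higher and 2 lower, and without scramble 2, 18 higher. The medians were 0.87, 0.59 and 0.41. Of the 13 mRNAs encoded in mitochondrial DNA, which mitochondrial ribosomes translate, 0 were called higher and 12 lower, and the medians were -1.99, -1.38 and -1.56. The count called lower was 10 without the untreated control or without scramble 2. MT-ND4L had 8460, 31049 and 12135 TPM of input and 1791, 3858 and 1296 TPM of footprints, a relative TE of -1.88, -2.31 and -1.80 (limma adjusted p = 2.3e-05). MT-ATP6 had 4437, 13490 and 4342 TPM of input and stood at -1.89 ± 0.13, with all 3 controls close together. MT-ND4L and MT-ATP6 each overlap a neighbouring mitochondrial gene, and how reads in the overlap were assigned is not given in the sources used here. Cycloheximide halts cytosolic ribosomes, and the same footprint size was selected for all mRNAs. Whether footprints of mitochondrial ribosomes were captured as well as those of cytosolic ribosomes was not tested. The contrast between the genomes is therefore one of measured TE only. Among nuclear-encoded subunits, UQCRC2 of complex III was at 1.91, 1.88 and 1.63 and ATP5PF of the ATP synthase at 1.69 ± 0.38. The small complex III subunits UQCR11, at -2.54 ± 0.57 (-2.95 and -1.71 at 0.1 and 5 TPM), and UQCR10, at -2.08 ± 0.28, were called lower (limma adjusted p = 4.44e-05 and 5.35e-05). UQCR11 had 2, 2 and 2 footprint reads and UQCR10 had 6, 4 and 1. Subunits of complex III thus lay on both sides of the median gene, the low side with few reads. Of 68 mitochondrial ribosomal proteins 22 were called higher (32.4%, against 12.4% of all genes) and 3 lower. Those called higher numbered 8 without the untreated control and 11 without scramble 2. MRPL12, at -3.04 ± 0.50 with 4, 7 and 2 footprint reads, was among the 12 lowest genes named.

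**Figure D3:**
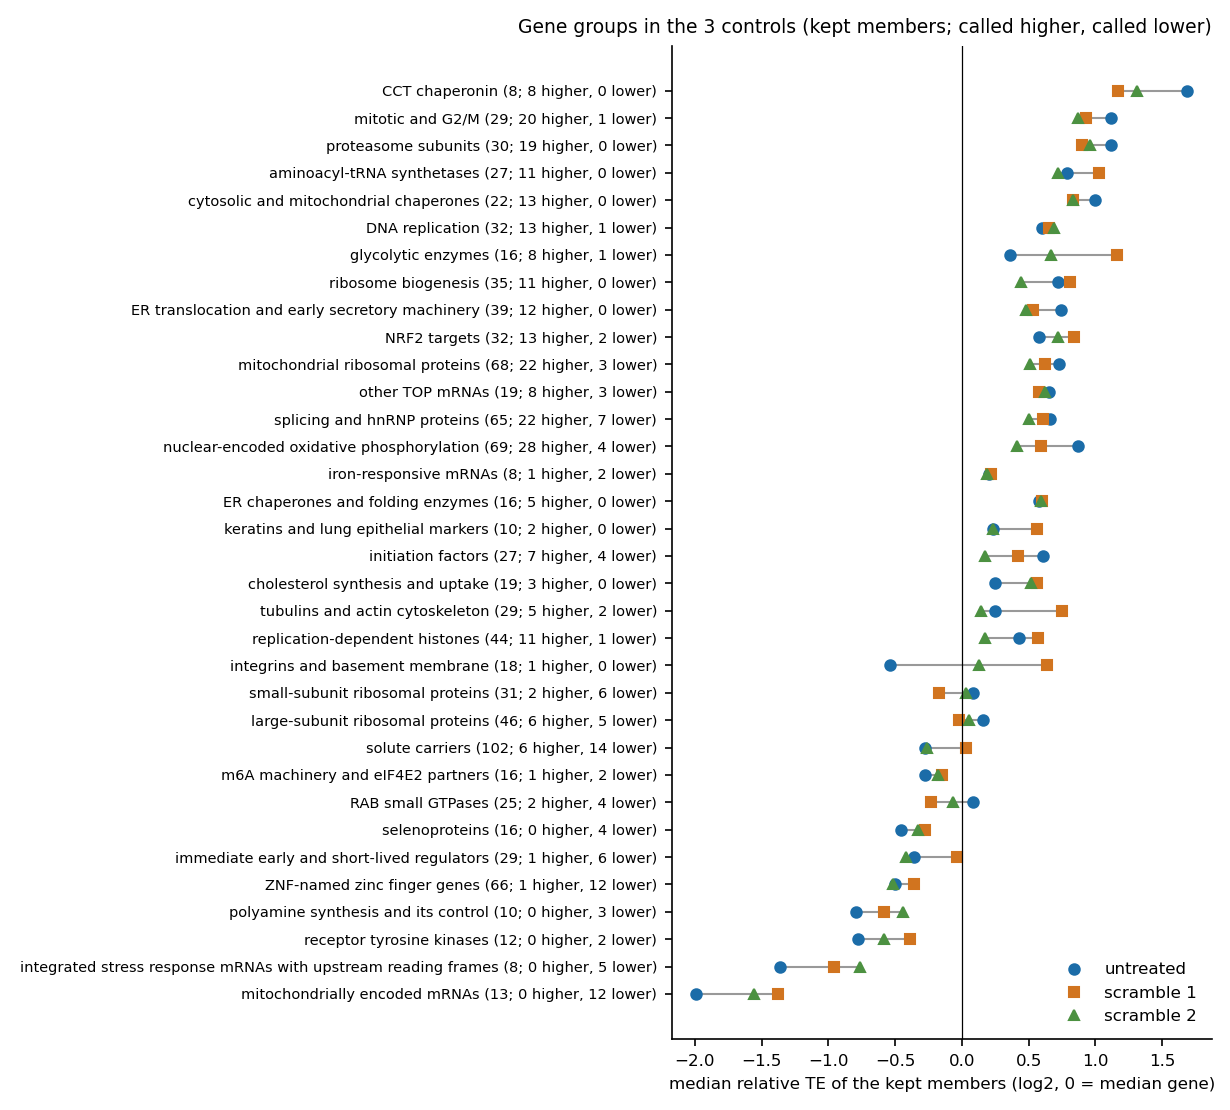
Median relative TE (log2, 0 = median gene) of the kept members of each gene group in the 3 controls, joined by a grey line; the label gives the number of kept members and how many were called higher and lower. CCT subunits lie highest (1.69, 1.17 and 1.31) and mitochondrially encoded mRNAs lowest (-1.99, -1.38 and -1.56), and the integrin group is the one in which the controls lie furthest apart.

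Ribosomal proteins, the best-known TOP mRNAs, lay at the median. The 46 kept proteins of the large subunit had medians of 0.16, -0.02 and 0.05, with 6 called higher and 5 lower, and the 31 of the small subunit had 0.08, -0.17 and 0.03, with 2 called higher and 6 lower. The shares called higher were 13.0% and 6.45%, against 12.4% of all genes, and the shares called lower 10.9% and 19.4%, against 15.2%. With 1 control left out, 3 to 9 large-subunit and 0 to 1 small-subunit proteins were called higher (9 without scramble 1, 3 without scramble 2, and 0 without either scramble for the small subunit). RPL41, whose product is among the shortest ribosomal proteins, was called higher at 1.77, 0.54 and 1.99. RPS2, with 1108, 519 and 805 TPM of input and 292, 96.1 and 60.8 TPM of footprints, was called lower at -1.85 ± 0.37 (limma adjusted p = 1.8e-05), and RPLP0 of the ribosomal stalk at -1.23 ± 0.34. RPL22 was lowest, at -2.48 ± 0.55 (-3.08 and -1.48 at 0.1 and 5 TPM), with 2, 3 and 4 footprint reads. RefSeq names 55 pseudogenes after RPS2 and 22 after RPL22, and how reads that match both a gene and a pseudogene were counted is not given in the sources used here. Other TOP mRNAs lay on both sides of the median gene, more of them above it. Of 19 kept, 8 were called higher (42.1%, against 12.4% of all genes) and 3 lower (15.8%, against 15.2%). The counts were 4 and 1 without the untreated control or without scramble 2. The group medians were 0.65, 0.58 and 0.62, and 14 members lay above the median gene in every control. EIF3A at 1.78 ± 0.97 and SLC25A5 at 1.33 ± 0.12 were among those called higher. The elongation factors EEF1A1, at -0.14, 0.51 and -0.33, and EEF2, at 0.10, 1.42 and 0.21, were not called (limma adjusted p = 0.973 and 0.0924). The poly(A)-binding protein PABPC1 was called lower, at -1.19, -1.24 and -0.97 (limma adjusted p = 0.00233). TPT1 was called lower at -1.02 ± 0.11 (limma adjusted p = 0.00839), but not without the untreated control (0.0524) or without scramble 2 (0.0577).

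The first bases of these mRNAs are shown because the TOP tract defines the class. Each line gives 10 bases before and 20 bases from the RefSeq start (GRCh38.p14, 5′ to 3′ on the gene's strand), with the pyrimidine run that begins at the annotated start in capitals where that start is a C. The lines begin with TOP mRNAs, in rising order of mean relative TE, and end with CCT2 and OAZ1, genes of high and low TE with no such run.
RPS12 (chr6:132814559-132814588, +): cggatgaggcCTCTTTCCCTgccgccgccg
TPT1 (chr13:45341164-45341193, -): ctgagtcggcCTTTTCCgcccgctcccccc
EEF1A1 (chr6:73521013-73521042, -): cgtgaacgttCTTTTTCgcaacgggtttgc
RPS6 (chr9:19380217-19380246, -): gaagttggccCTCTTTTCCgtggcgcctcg
EEF2 (chr19:3985444-3985473, -): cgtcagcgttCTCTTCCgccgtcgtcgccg
NPM1 (chr5:171387839-171387868, +): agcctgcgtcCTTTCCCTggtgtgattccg
RPL41 (chr12:56116623-56116652, +): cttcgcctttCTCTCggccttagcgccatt
CCT2 (chr12:69585449-69585478, +): ggcttccttcagtccgctggtcccgagcac
OAZ1 (chr19:2269476-2269505, +): gcctgggcgcagcatctataaaggcgggcg

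Genes with the tract lay on both sides of the median gene. RPS12, with a run of 10, was called lower at -0.52, -2.10 and -1.92 (limma adjusted p = 0.000598), RPS6, with a run of 9, was at 0.13 and not called, and NPM1, a nucleolar chaperone with a run of 8, was called higher at 1.00. A C followed by pyrimidines for at least 5 bases in all, on the transcribed strand and with no other motif searched, began 1104 of 27305 RefSeq start windows (4.04%) and 311 of the 4667 matched to kept genes (6.66%). It began 41 of the 61 ribosomal protein genes with a window. These 41 had medians of 0.18, -0.13 and 0.03, and the 20 without the run had 0.17, 0.03 and 0.17. The run was read at the annotated start, and starts used in A549 were not mapped. RPS27A and RPS29, for example, had a run of 0 there, so lack of a run need not mean lack of a TOP tract. Among genes outside the TOP lists, 260 with the run had medians of 0.13, 0.00 and 0.09 and 4334 without it had 0.00, 0.01 and 0.01.

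Both ferritin mRNAs were at the bottom. FTH1, the heavy chain of the iron-storage shell, had 638, 537 and 436 TPM of input, or 505, 368 and 305 reads, but only 17, 19 and 8 footprint reads. Its TE was 0.0298 in untreated (95% Clopper-Pearson interval 0.0172 to 0.0482), 0.0276 in scramble 1 (0.0164 to 0.0437) and 0.0289 in scramble 2 (0.0124 to 0.0576). The intervals of the 3 controls overlapped, and the relative TE of -4.20 ± 0.56, or 0.0543 times the median gene, was the lowest value of the fit (limma adjusted p = 1.27e-09). It was -4.22 and -4.08 at pseudocounts of 0.1 and 5 TPM, while JTB, MYOCOS, ARPC1A and other genes with few or no footprint reads lay below it at 0.1 TPM. FTL, the light chain, was among the most abundant mRNAs, with 15683, 13027 and 11230 TPM of input, yet had 935, 1122 and 667 TPM of footprints. It stood at -3.71, -2.83 and -2.64 (limma adjusted p = 2.52e-07). The transferrin receptor TFRC, which brings iron in and whose mRNA carries its iron-responsive elements in the 3′ UTR, was called higher at 1.20 ± 0.47 (limma adjusted p = 0.00407), with 31.5, 145 and 93.7 TPM of input and 72.0, 140 and 93.5 TPM of footprints. Of the 8 kept iron-responsive mRNAs these 3 were called, and ACO1, IREB2, NCOA4, ALAS1 and EPAS1 were not, at -0.54 to 1.04. A second gene was called higher without scramble 1 or without scramble 2. RefSeq names 27 pseudogenes after FTH1 and 20 after FTL. At least 1 pseudogene is named after 20.9% of genes called lower, 32.2% of genes called higher, 25.2% of stably low genes, 30.3% of stably high genes and 22.3% of all kept genes.

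Antizyme, the brake on polyamine synthesis, was low as well. OAZ1, which is made only after a ribosomal frameshift in its coding sequence, had 218, 135 and 217 TPM of input and 19.6, 10.4 and 11.9 TPM of footprints. Its relative TE was -3.06, -2.87 and -2.64, with the controls close together (limma adjusted p = 1.57e-07). Its target ornithine decarboxylase, ODC1, was at -0.67 ± 0.48 and was not called (limma adjusted p = 0.0529), though it was without scramble 2 (0.0376). AMD1, which makes the donor for polyamine synthesis, was at 0.88, -1.36 and 0.09, and AZIN1, the antizyme inhibitor, at 0.50, -0.44 and -0.05, so for both the controls lay on both sides of the median gene. In all, 0 of 10 kept polyamine genes were called higher, against 12.4% of all genes. Called lower were 3 (30.0%, against 15.2% of all genes), and 2 without the untreated control, too few genes to set the group apart.

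Of 8 kept mRNAs of the integrated stress response with upstream reading frames, 0 were called higher and 5 lower (62.5%, against 15.2% of all). The count called lower was 5 whichever control was left out. The medians were -1.36, -0.96 and -0.76. The transcription factor ATF4 had 152, 123 and 189 TPM of input and 41.2, 9.56 and 44.7 TPM of footprints, a relative TE of -1.50, -2.85 and -0.62 (limma adjusted p = 0.00107). Scramble 1 was lowest, with the smallest footprint level. ATF5, a related factor, was at -3.10, -1.50 and -2.92, a mean of -2.51 (-2.80 and -1.91 at 0.1 and 5 TPM; limma adjusted p = 3.85e-05), and there scramble 1 was highest. SLC35A4 at -1.68 ± 0.73, PPP1R15A, a phosphatase subunit that reverses the response, at -1.58 ± 1.01, and TRIB3 at -1.09 were also called lower. CEBPB, PPP1R15B and UCP2 were not called, at 0.14, -0.32 and -0.20.

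Other stably low genes came from many functions. JTB, a membrane protein, had 14, 18 and 17 input reads and 0 footprint reads in every control, so its fitted value of -4.14 depends on the pseudocount (-7.36 and -2.18 at 0.1 and 5 TPM), and its TE was at most 0.267, 0.121 and 0.267 by the upper 95% Clopper-Pearson bound. EGR3, FAM89B and KLF15 also had 0 footprint reads in all 3 controls, with 3 to 19 input reads. The chemokine CXCL5 had 161, 1433 and 350 TPM of input and 8.29, 58.3 and 22.0 TPM of footprints, and its relative TE was -3.77, -3.89 and -2.50 (limma adjusted p = 9.09e-08). Its input differed widely between the controls, and its uncentred TE was 0.0515, 0.0407 and 0.0628. NEDD8, a ubiquitin-like modifier, had 3, 0 and 1 footprint reads and was at -3.29 ± 0.52 (-4.81 and -1.91 at 0.1 and 5 TPM). ARPC1A of the actin-nucleating Arp2/3 complex had 1, 0 and 1 footprint reads and was at -3.67 ± 0.97 (-5.17 and -2.25). BPTF, a chromatin remodelling subunit, had 25, 21 and 12 and was at -3.05 ± 0.52 (-3.38 and -2.29). MYOCOS had 2, 1 and 0 footprint reads and was at -4.19 ± 0.33 (-5.81 and -2.67). The order of these lowest genes therefore depends on the pseudocount. Of the 127 stably low genes 7 (5.51%) carry a name that forms part of a readthrough gene's symbol in RefSeq, among them NEDD8, ARPC4 and NME2, against 49 of the 5672 kept genes (0.864%) and 0 of the 89 stably high genes. How reads in exons shared with such genes were counted is not given in the sources used here, and its part in the result was not tested.

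Regulators and receptors were called lower about as often as all genes. Of 66 kept genes with a ZNF name, most of which encode zinc finger transcription factors, 1 was called higher and 12 lower (18.2%, against 15.2% of all genes), with medians of -0.50, -0.36 and -0.52. The count was 7 without the untreated control. Of 12 receptor tyrosine kinases 8 lay below the median gene in all 3 controls, but 2 were called lower (16.7%), 0 without the untreated control, 0 without scramble 2 and 4 without scramble 1. AXL, one of the most abundant, was at -0.85, -0.69 and -0.66 (limma adjusted p = 0.0188; 0.148 without the untreated control and 0.0744 without scramble 2). Among 29 immediate early and short-lived regulators 1 was called higher and 6 lower (20.7%; 2 lower without the untreated control, 3 without scramble 2). The hypoxia factor HIF1A was the one called higher, at 2.15, 1.16 and 1.55 (limma adjusted p = 0.001), while JUND was at -1.09 ± 0.23, BTG2, with 1, 5 and 0 footprint reads, at -2.14 ± 0.89 (-3.55 and -1.02 at 0.1 and 5 TPM), and MYC at -0.05 ± 0.32, not called. Of 16 selenoprotein genes 0 were called higher and 4 lower, including GPX1 at -1.31 ± 0.27. Small actin-binding thymosins with abundant mRNA were low: TMSB10 had 5714, 2891 and 4450 TPM of input and stood at -1.38, -1.53 and -1.56 (limma adjusted p = 0.000137). Input reads of UTRs count in this ratio and coding length was not used, and their part in the low value was not tested.

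Metabolic and secretory genes were mixed in their share of calls. Of 16 glycolytic enzymes 8 were called higher and 1 lower (4 higher without scramble 1), and LDHA, lactate dehydrogenase, was even across controls at 1.18, 1.07 and 1.07 (limma adjusted p = 0.00167). Of 39 genes of ER translocation and the early secretory pathway 12 were called higher (30.8%) and 0 lower. Without the untreated control or without scramble 2, 6 were called higher. The coat subunit COPB1 was at 1.47, 1.36 and 1.38. A549 lacks working KEAP1, the inhibitor of the antioxidant factor NRF2. Of 32 NRF2 targets 13 were called higher (40.6%) and 2 lower (6.25%, against 15.2% of all genes), the 2 being FTH1 and FTL. PRDX1, a peroxiredoxin, had 532, 368 and 644 TPM of input and 1441, 774 and 488 TPM of footprints and stood at 1.79, 1.77 and 1.03 (limma adjusted p = 0.00015). Of 44 replication-dependent histone genes 11 were called higher and 1 lower (3 lower without scramble 1), with H4C8 at 1.33 ± 0.20, and since several encode identical proteins from near-identical sequence, their reads may be split among copies. Cholesterol synthesis had 3 of 19 called higher, a share of 15.8% near that of all genes, including HMGCS1 at 2.08, 1.26 and 1.62. Of 27 initiation factors 7 were called higher (25.9%, against 12.4% of all genes) and 4 lower (14.8%, against 15.2%). Those called higher numbered 4 without the untreated control, and those called lower 2 without scramble 1. EIF4EBP2, an mTOR-controlled repressor of cap-dependent initiation, was the lowest of the 27 at -2.27 ± 0.82 (-2.55 and -1.61 at 0.1 and 5 TPM). Solute carriers (6 of 102 called higher, 14 lower), RAB GTPases (2 of 25 and 4), integrins and basement membrane genes (1 of 18 and 0), tubulins and actin cytoskeleton genes (5 of 29 and 2) and keratins with lung markers (2 of 10 and 0) held both directions or few calls. Of the solute carriers 5.88% were called higher, against 12.4% of all genes, and 13.7% lower, against 15.2%. The share of RAB genes called lower was also near that of all genes. Without the untreated control 0 RAB genes, 0 integrin genes and 2 cytoskeleton genes were called higher, and 9 solute carriers lower. RAB genes called lower numbered 2 whichever control was left out. Without scramble 2, 2 solute carriers were called higher and 8 lower, with 1 RAB, 0 integrin and 1 cytoskeleton gene higher. Without scramble 1, 21 solute carriers were called lower, and 1 RAB gene, 3 cytoskeleton genes and 1 keratin-list gene higher.

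The genes that the study perturbed were ordinary in TE. METTL16, which writes N6-methyladenosine (m6A) on U6 snRNA and on the MAT2A mRNA, had 12.8, 11.1 and 14.1 TPM of input and was at -0.25, 0.00 and -0.43 (limma adjusted p = 0.676). EIF4E2, a cap-binding repressor of translation, had 14.7, 8.47 and 21.4 TPM of input and was at -0.71, -0.43 and -0.40 (limma adjusted p = 0.31). MAT2A, which makes the methyl donor S-adenosylmethionine, was called higher at 1.16, 0.99 and 1.14 (limma adjusted p = 0.00432), with little spread between controls. The m6A demethylase ALKBH5 was stably low at -1.68, -1.86 and -2.13 (limma adjusted p = 4.44e-05). Of 16 kept genes of the m6A machinery and the eIF4E2 complex, MAT2A was called higher, ALKBH5 and RBM15B were called lower, and 13 were not called.

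Some genes differed widely between the controls. HES7, a transcriptional repressor, was at -0.75, -3.29 and 2.79, with 55.2, 54.4 and 96.0 TPM of input and 25.1, 2.49 and 248 TPM of footprints, and it had the largest SD, 3.05, among genes with a mean input of at least 20 TPM. CTC1, a telomere maintenance factor, was at 0.89, 0.22 and 4.75, with 840 footprint reads in scramble 2 over 90 input reads. It was called higher (limma adjusted p = 0.0167) but not without scramble 2 (0.488). In the 2 knockdown samples of the same deposited table as scramble 2, CTC1 was at 3.97 and 3.68 and HES7 at 2.06 and 1.47. In sgM16 1, sgM16 2 and shM16 1, CTC1 was at -1.49, 2.05 and -0.77. HES7 was at -0.14 in sgM16 2 and -2.58 in shM16 1, and lower still in sgM16 1. The autophagy gene MAP1LC3B was at -0.83, -2.62 and 1.58. ZNF146, at 2.88, -1.52 and 0.34, had only 9 input reads in the untreated control, and SDHAF3, at 0.35, 0.28 and -3.21, had 0 footprint reads in scramble 2, so that its value there depends on the pseudocount. KRT85, a hair keratin named after its values were seen, was the highest kept gene at 3.26, 3.65 and 2.95, with 11 to 19 input reads.

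Genes with GC-rich starts lay lower in TE than genes with GC-poor starts, as a description with no test. The GC content of the RefSeq start window (250 bases before to 50 after the start) had a median of 60.3% in 80 stably high genes with a window, 66.0% in 104 stably low genes and 66.0% in all 4667. Among all called genes the medians were 62.3% for those called higher and 70.0% for those called lower. Over 5 bins of rising GC content, 18.3% of genes in the lowest bin were called higher and 9.35% lower, against 4.38% and 25.3% in the highest. Spearman's rho between GC content and relative TE was -0.23, -0.20 and -0.18. Median exonic length was 4257 nt in stably high genes, 4327 nt in stably low genes and 4573 nt in all, with rho of -0.11, -0.08 and -0.02. Input reads cover whole exons including UTRs, whereas footprints lie mainly in coding sequence, and coding length was not used here. Relation of TE to the input level was weak, with rho of 0.02, 0.10 and -0.06, but calls followed level and depth. In the highest of 5 bins of input 21.1% of genes were called higher and 17.9% lower, against 10.3% and 10.9% in the lowest. At 100 or more reads in the shallowest library, 117 of 258 genes were called higher and 20 lower. Below 10 reads, 89 and 567 of 2205 were. Groups and the shares over all genes were not matched for level or depth. Genes just inside the input limit, at 5 to 6 TPM in their lowest control, and just outside it, at 4 to 5 TPM, both had a median of -0.06 (519 and 551 genes).

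**Figure D4:**
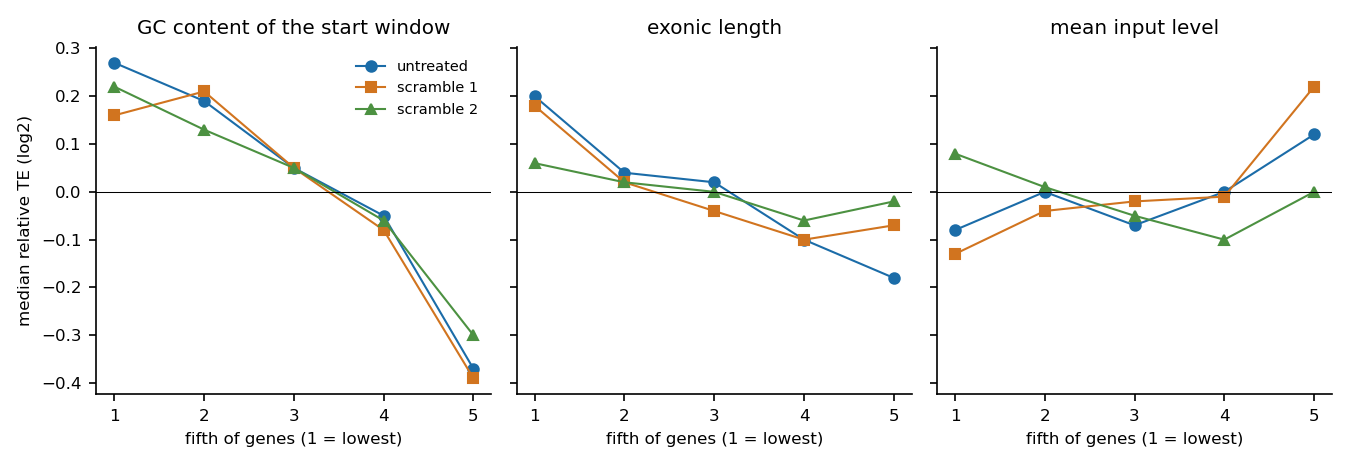
Median relative TE (log2) of genes sorted into 5 bins of start-window GC content, exonic length and mean input TPM, from lowest to highest, in each control. Medians are 0.27, 0.16 and 0.22 in the lowest GC bin and -0.37, -0.39 and -0.30 in the highest, a wider range than for length or input level.

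The same ranking was then read in the 5 samples that had not been used to choose the genes. Of the 89 stably high genes 82 (92.1%) lay above the median gene in all 5, against 1319 of 5640 kept genes listed there (23.4%). Of 125 stably low genes listed in all 5, 121 (96.8%) lay below it in all 5, against 1327 (23.5%). These samples are the same line, tabulated with the same gene lengths, and differ from the controls by a perturbation of METTL16 or EIF4E2. FTH1 was at -4.17 and -4.26 in the sgM16 samples, -3.72 in shM16 1 and -4.45 and -6.38 in the sheIF4E2 samples. CCT2 was at 1.63, 1.40, 1.12, 1.91 and 2.22 in the same order, lowest in shM16 1. The mitochondrially encoded mRNAs had a median of -1.98 and -1.63 in the sgM16 samples, -1.88 and -1.70 in the sheIF4E2 samples, and -0.28 in shM16 1. The shM16 sample therefore stood apart from all 3 controls in that group, while CCT, proteasome and stress-response medians kept their side of the median gene in it, at 0.77, 0.75 and -0.86.

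**Figure D5:**
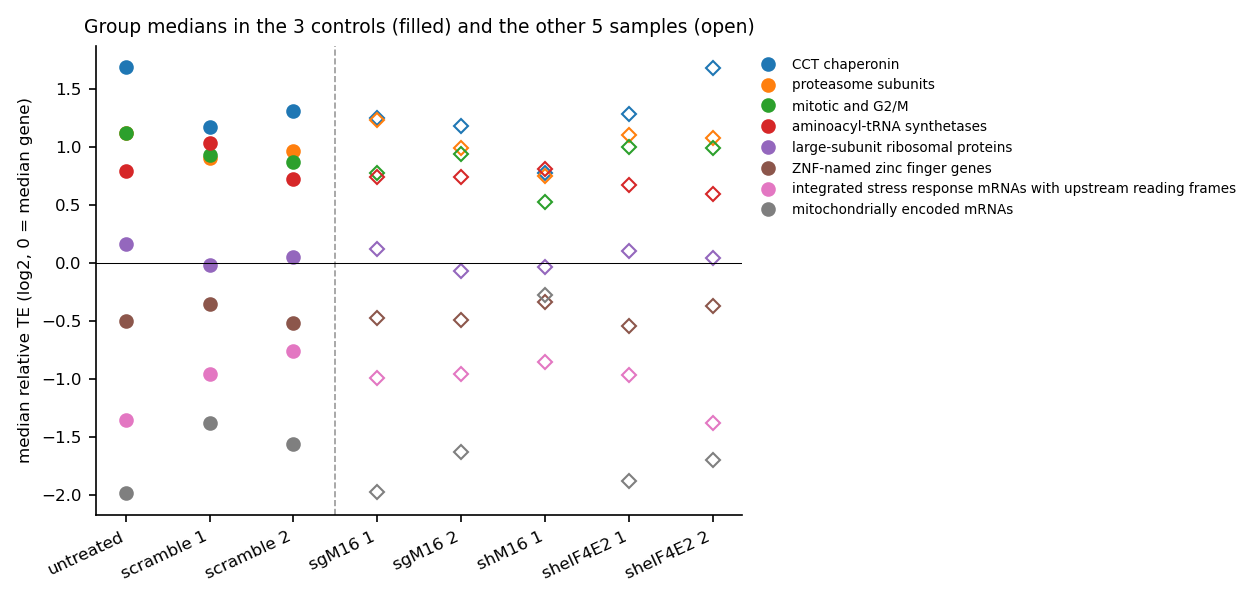
Median relative TE (log2) of 8 gene groups in the 3 controls (filled circles) and in the other 5 samples (open diamonds). Each group lies on the same side of the median gene in all 8 samples except the large-subunit ribosomal proteins, which lie near 0, and the mitochondrially encoded mRNAs lie at -0.28 in shM16 1.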

How the data were processed

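Footprint and input libraries of 3 control samples were compared within each sample. The authors deposited TPM per gene in 3 tables. The submitters' processing notes name GRCh38, the counter featureCounts 2.0.1, the aligners STAR 2.7.5c, Bowtie2 2.2.5 and Bowtie 1.3.0, and the trimmer cutadapt 2.8. Whole reads were recovered from the steps of the TPM values for 11892 of the 12587 genes listed in any sample. Of the gene lengths, 11803 came out whole within 0.001 nt. Both libraries of a gene share that length, so TE is a ratio of reads.

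Relative TE was fitted with limma 3.58.1 in R 4.3.3 (intercept fit over 3 samples, footprint and input paired by sample, eBayes with a trend on mean input, 2 residual degrees of freedom, two-sided, Benjamini-Hochberg over 5672 genes). The fitting steps were also run on simulated reads with a common assumed spread for all genes, which does not give the error rate in these data. The pairing comes from the design: both libraries are of the same sample. Their deviations from the group means correlated at 0.33, 0.43 and 0.19 within samples and at -0.34 to 0.11 across samples. Over 3 samples a gene's deviations cancel out, so positive values within samples bring lower ones across samples. The contrast is therefore no separate test of the pairing. The count test on recovered reads (limma's voom) called 903 genes higher and 858 lower. Rank limits were the highest and lowest 10%. Clopper-Pearson intervals cover counting error only, and reads without molecular identifiers are not independent molecules.

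Gene lists and members were chosen with earlier results of these data known. Named were the 12 highest and lowest called genes that were stably ranked with a mean input of at least 20 TPM, up to 4 called members per list, the 5 widest spreads and a set list of translation-control genes. Of 36 lists 34 had a kept member, and noncoding RNA lists were not analysed here. RefSeq GRCh38.p14 held 5600 of 5672 symbols (98.7%) and start windows for 4667 (82.3%). Alternatives are given in the closing section.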

Additional observations from a re-analysis of the deposited data

How the results depend on the processing

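No call of the 148 named genes turned into a call of the other direction. Requiring a footprint level of at least 5 TPM gave 355 genes called higher, 526 called lower and 40 stably high. Of these, 304 of the 526 and all 355 and 40 were also called or ranked so without it, and of the 110 stably low genes 28 were. That filter removes genes with few footprints, shifts the median gene and moved 26 of 34 group medians; the cause of the changed counts was not tested. Without centring on the median gene, 7 genes were called higher and 1890 lower. The calls of ARPC3 (-0.02), CANX (-0.09), KRT7 (-0.08) and RPS9 (-0.02) were then lost, their values crossing 0 at limma adjusted p of 0.914 to 0.985. Group medians turned in sign in 19 of 34 groups without centring and in 0 to 3 under each other alternative, among them the iron-responsive mRNAs (0.53, and -0.04 at an input minimum of 10 TPM). With no replicate block, that is without pairing footprint and input by sample, 136 genes were called higher and 297 lower, and 61 named genes lost their call. Leaving out 1 control gave 348 to 628 genes called higher, 528 to 791 called lower, 137 to 261 stably high and 212 to 244 stably low, the last 2 over fewer samples. With a limit of 20% in place of 10%, 333 genes were stably high and 377 stably low. Other pseudocounts, other input minimums, quantile normalization, a fit without trend, voom, and a minimum of 20 input reads added after seeing the data kept each of these counts within 1.5 times. The genes behind similar counts changed. With no input minimum, 435 of 705 genes called higher, 52 of 89 stably high and all 127 stably low genes stayed so. A pseudocount of 5 TPM kept 79 of the 89 stably high and 88 of the 127 stably low genes. The shallow scramble 2 footprints, with a median of 14 reads per kept gene, limit single-gene calls.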
